A study of Mus musculus with 10 samples.

Results

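Nuclear hormone receptor genes were described in 10 single neurons of the mouse nucleus of the solitary tract, a brainstem relay for signals from the gut. The 33 members are a list of receptor symbols matched to the Ensembl identifiers of the deposited gene counts, out of 25006 genes listed. The list is by name and applies no cutoff on a measured value, but it was chosen with earlier results of these data known. They comprise 5 steroid receptors, 2 thyroid hormone receptors, 6 retinoid receptors, 6 receptors that sense lipids or vitamin D, and 14 receptors grouped here as orphans. Each library held the RNA of 1 neuron, aspirated from an acute slice with its cytoplasm and nucleus. All neurons came from C57BL/6 mice aged 3 months that carried LepRb-Cre; Halo-eYFP, a reporter that marks cells in which Cre driven with the leptin receptor has acted. The labels sort the neurons into 5 with a type 1 firing property (1-1, 1-2, 4-3, 8-2 and 9-1) and 5 with a type 2 firing property (6-2, 10-1, 10-3, 9-2 and 9-4). They do not say what the firing types or the neuron numbers stand for, nor how many animals were used. The comparison addressed how the transcripts of the firing types differ.

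Nuclear receptors are transcription factors that bind DNA and, in many cases, a small lipid-soluble ligand that crosses the cell membrane. The ligand switches the receptor between partner proteins that close chromatin (corepressors) and partners that open it (coactivators). Steroid receptors wait with chaperones and bind DNA mostly as homodimers, whereas thyroid hormone, retinoic acid, vitamin D and lipid-sensing receptors pair with a retinoid X receptor. In the hindbrain, glucocorticoids, oestrogens, thyroid hormone and lipids act on circuits of feeding, autonomic control and stress, and several orphan receptors take part in the circadian clock or in neuronal development.

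Levels are counts scaled to the library's total (CPM, the usual scale), and a gene is called detected in a neuron when it reaches 10 CPM and has at least 3 counts. Since 1 neuron is 1 sample and no animal is named, each firing type was treated as 1 sample and no test was made between types. The SD given is the spread between the 5 neurons of a type. A difference is type 2 minus type 1 of mean log2(CPM + 1), which understates the fold of genes at low levels, and 4-fold means a difference of at least 2 in either direction. Library totals ran from 9796799 counts in 4-3 to 41844825 in 8-2, so that a count of 0 allowed a level of up to 0.306 and 0.0717 CPM in these libraries by counting error alone. Of 6 neuronal genes, Snap25, Tubb3, Map2 and Stmn2 were detected in all 10 neurons, Syt1 in 7, and Rbfox3 in all 5 of type 1 but only 2 of type 2 (difference -3.56). The glutamatergic marker Slc17a6 was detected in all 10. Lepr, the gene of the leptin receptor, was at 10 CPM or more in 6 of 10 neurons, between 0.890 and 122 CPM. Gcg, the gene of preproglucagon, lay between 0 and 14.1 CPM in type 1 and between 3556 and 17680 CPM in type 2. Of 14 microglial markers, 13 had the higher mean in type 2. Summed, they ran from 0.0668 to 894 CPM in type 1 neurons and from 4.16 to 1823 CPM in type 2 neurons, highest in 6-2, 9-4 and 1-2. The microglial marker P2ry12 was at 0 counts in 9 neurons and at 31.1 CPM in 6-2. Astrocyte markers summed to 405 ± 225 CPM in type 1 neurons against 1354 ± 358 CPM in type 2 (SD, n = 5 each). Most of this was Aldoc, with means of 394 and 1296 CPM. Of these markers, 4 were detected in 6-2 and 3 in 9-4, against 1 or 2 in each other neuron. Besides Aldoc, 6-2 held Sox9 (102 CPM), Gfap (56.1 CPM) and Slc1a2 (20.7 CPM). Neuron 9-4 held Sox9 (52.0 CPM) and Aldh1l1 (51.0 CPM). In type 1, Slc1a2 reached 30.6 CPM in 4-3, and Gfap reached 15.6 CPM in 9-1. Aqp4 and Gja1 were detected in no neuron, and Slc1a3 had no count. Oligodendrocyte markers summed to 1045 CPM in 9-1, where Mbp and Cnp were at 578 and 455 CPM, and to 2.00 to 220 CPM in the other 9 neurons. The part of RNA from such cells in the receptor values was not tested. Differences of the receptors past 4-fold and of Nr3c1 are also given below without 6-2, 9-2 and 9-4, as is each other receptor whose direction turned. This omission drops type 2 neurons only. It keeps 1-2, whose microglial markers summed to 894 CPM, and drops 9-2, where they summed to 492 CPM. It sets 10-1 and 10-3 alone against all 5 type 1 neurons, so it is not a comparison cleared of microglial RNA.

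Of the 33 receptor genes, 25 had at least 1 count, 22 had a mean of at least 1 CPM over the 10 neurons, and the same number was detected in at least 1 neuron. Only Thra was detected in all 10 neurons, Nr3c1 and Rxrb were detected in 9, and 11 receptors were detected in none. A neuron held between 5 and 13 detected receptors. The counts were 5, 9, 9, 12 and 13 in type 1 neurons 1-1, 1-2, 4-3, 8-2 and 9-1, with a mean of 9.6 ± 3.13 (SD, n = 5). They were 10, 9, 6, 8 and 9 in type 2 neurons 6-2, 10-1, 10-3, 9-2 and 9-4, with a mean of 8.4 ± 1.52 (SD, n = 5). The ranges overlapped, and the difference of -1.2 receptors was smaller than either SD. Over all genes, a neuron held between 5315 (1-1) and 7367 (6-2) detected genes. Means were 5994 ± 703 in type 1 and 6564 ± 546 in type 2 (SD, n = 5 each), the opposite direction to the receptors. Neuron 1-1 was thus lowest both in receptors and in all genes. The same receptor was often high in one neuron and near 0 in the next. Of the 220 values of the 22 measured receptors, 40.9% were at 10 CPM or more, 49.5% were below 1 CPM and 9.55% lay between. Over all 11923 genes with such a mean these shares were 52.7%, 40.1% and 7.26%.

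**Figure D1:**
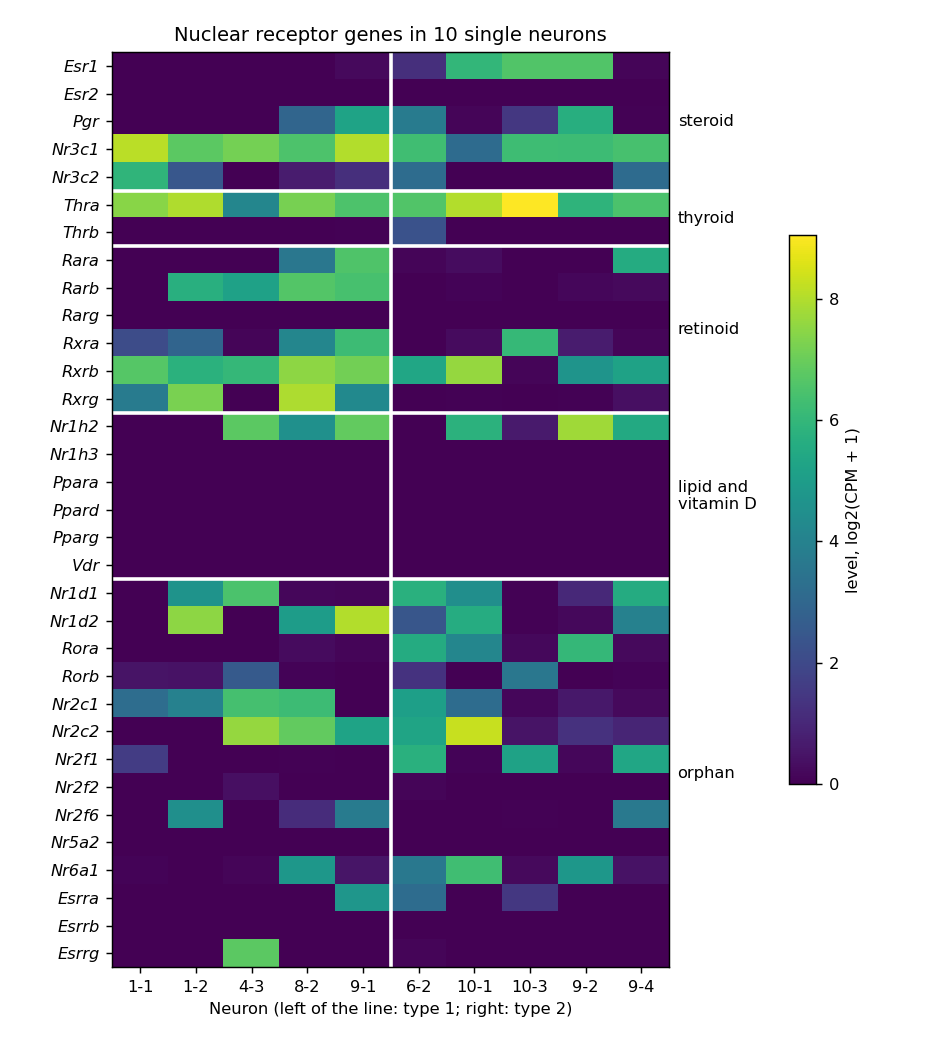
Level of each of the 33 receptor genes (rows, by class) in each of the 10 neurons (columns, type 1 left and type 2 right of the white line), as log2(CPM + 1) in colour. Thra, Nr3c1 and Rxrb form nearly unbroken rows, Rarb and Rxrg are bright in type 1 neurons alone, and 8 rows have no count.

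**Figure D2:**
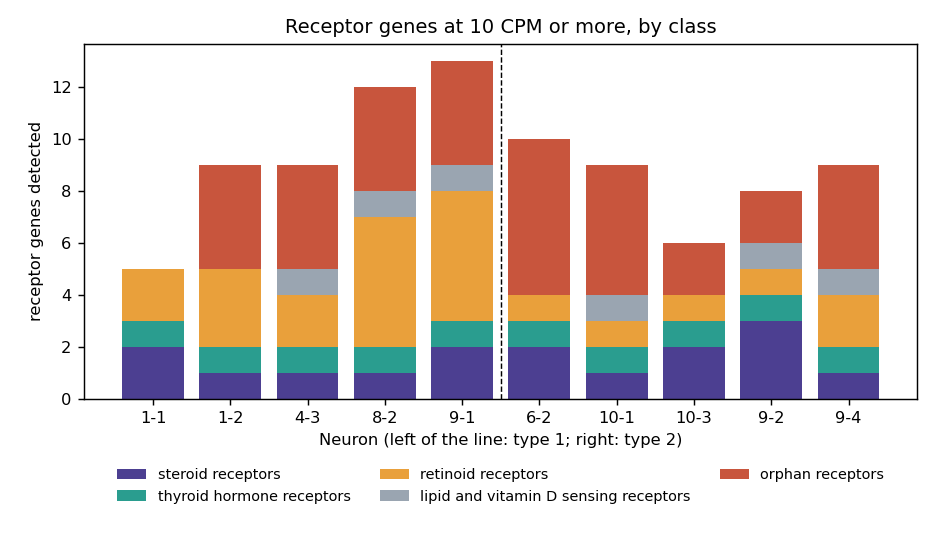
Number of receptor genes detected (at least 10 CPM and 3 counts) in each neuron, stacked by class, with type 1 neurons left and type 2 neurons right of the dashed line. Bars run from 5 to 13 genes in type 1 and from 6 to 10 in type 2, and the retinoid share is 2 to 5 genes in type 1 against 1 or 2 in type 2.

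By the size of the difference, 3 of the 22 measured receptors were at least 4-fold higher in type 2: Esr1, Rora and Nr2f1. Among all 11923 genes the share at least 4-fold higher in type 2 was 13.5%, so that the receptors' count lay at the background. At least 4-fold higher in type 1 were 4 of 22 (18.2%): Rarb, Rxrg, Nr2c1 and Rxrb, where the share among all genes was 7.78%. The count of 4 became 2 with TMM scaling of the library sizes or without neuron 8-2, and Rarb and Rxrg were the receptors left. The median difference was -0.73 over the 22 receptors and 0.24 over all genes. By mean log2 level, 13 receptors were higher in type 1 and 9 in type 2, against 5222 and 6701 of all genes. No receptor had every type 2 neuron above every type 1 neuron, against 1.44% of all genes, and 1 (Nr3c1) had every type 1 neuron above every type 2 neuron, against 0.587%.

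**Figure D3:**
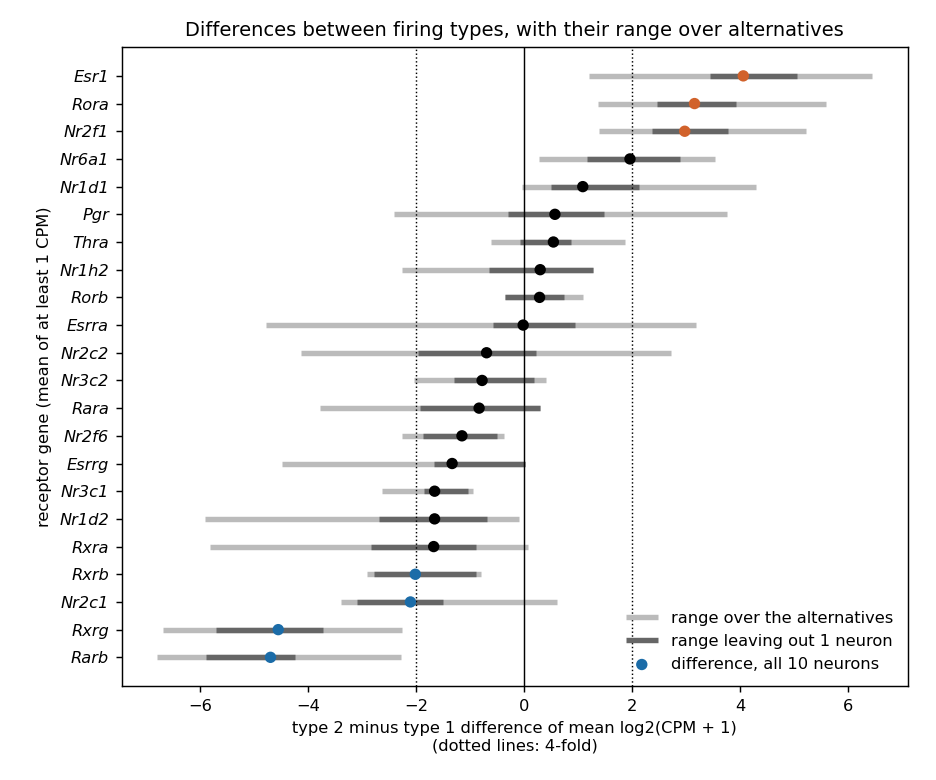
Difference between types (type 2 minus type 1, mean log2(CPM + 1)) for the 22 measured receptors (points), with the range over leaving out 1 neuron (dark bars) and over all alternative settings (pale bars). Orange points are at least 4-fold higher in type 2, blue points at least 4-fold higher in type 1 and black points neither. Rarb and Rxrg stay beyond the 4-fold line in every setting run.

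Among the steroid receptors, the glucocorticoid receptor gene Nr3c1 had the highest mean level per length in each type, 22.7 CPM per kb of exon in type 1 and 8.26 in type 2. Its product binds corticosterone, the adrenal stress hormone of the mouse. Nr3c1 was at 274, 109, 143, 91.8 and 256 CPM in type 1 neurons 1-1, 1-2, 4-3, 8-2 and 9-1. It was at 77.1, 7.98, 74.2, 73.2 and 85.1 CPM in type 2 neurons 6-2, 10-1, 10-3, 9-2 and 9-4. All 5 type 1 neurons lay above all 5 type 2 neurons, although 8-2 and 9-4 were separated by less than 7 CPM. Means of type 1 and type 2 were 175 ± 84.6 and 63.5 ± 31.4 CPM (SD, n = 5 each), and the difference was -1.65. Pooling the counts of all type 1 neurons gave 169 CPM, with an exact Poisson 95% interval from 167 to 171. Pooling those of type 2 gave 58.1 CPM, with an interval from 56.9 to 59.4, and such intervals cover counting error only. The gap between the types closed when library sizes were scaled by TMM, which put 1-2 at 86.1 CPM and 9-4 at 96.0 CPM. The difference was -1.03 without 10-1, the lowest neuron, and -2.62 without 6-2, 9-2 and 9-4.

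The oestrogen receptor gene Esr1 (chromosome 10, 4611593 to 5005614, plus strand, GRCm38) was detected in 3 type 2 neurons and in no type 1 neuron. Levels were 63.3, 96.4 and 94.9 CPM in 10-1, 10-3 and 9-2. The other type 2 neurons, 6-2 and 9-4, were at 1.31 and 0.0954 CPM. In type 1, Esr1 had no count in 1-1, 1-2 and 4-3 and stood at 0.0239 CPM in 8-2 and 0.159 CPM in 9-1. The groups overlapped, because 9-1 lay above 9-4. The difference was 4.06 over all neurons and 6.26 without 6-2, 9-2 and 9-4. Among the 4 libraries under 20000000 counts it was 1.21, where the lone type 2 library is 6-2. The second oestrogen receptor gene, Esr2, had no count in any neuron.

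The progesterone receptor gene Pgr had no count in 1-1, 1-2 and 4-3, 6.69 CPM in 8-2 and 37.3 CPM in 9-1. In type 2 it was at 12.5, 0.0961, 1.74, 50.0 and 0.0318 CPM in 6-2, 10-1, 10-3, 9-2 and 9-4. Pgr was thus detected in 1 type 1 and 2 type 2 neurons, and only 9-2 had both Pgr and Esr1 detected. The difference was 0.57 over all neurons and -0.85 without 6-2, 9-2 and 9-4, and the groups overlapped throughout. The mineralocorticoid receptor gene Nr3c2, whose product binds aldosterone and also corticosterone, was detected only in 1-1, at 60.1 CPM. The other 9 neurons ranged from 0 to 8.20 CPM, the highest of them 6-2.

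Thra, the gene of thyroid hormone receptor alpha, had the highest median level per length of the 33 receptors, 26.2 CPM per kb of exon. Rxrb followed with 14.8, Nr3c1 with 11.5, Nr1h2 with 9.89 and Nr1d1 with 3.59 CPM per kb. Whether reads covered transcripts evenly is not given in the sources used here, and between neurons these receptors varied by more than the steps of this order. In type 1 neurons 1-1, 1-2, 4-3, 8-2 and 9-1, Thra was at 174, 251, 16.9, 146 and 91.6 CPM. In type 2 neurons 6-2, 10-1, 10-3, 9-2 and 9-4 it was at 95.3, 258, 528, 58.7 and 89.1 CPM. Neuron 4-3 was lowest and 10-3 highest, and the groups overlapped, with means of 136 ± 87.9 and 206 ± 196 CPM (SD, n = 5 each) and a difference of 0.54 that became 1.87 without 6-2, 9-2 and 9-4. Thrb, the gene of the beta receptor, had counts in 2 neurons, 3.85 CPM in 6-2 and 0.0319 CPM in 9-1. Thra and Nr1d1 share 263 exon bases on opposite strands of chromosome 11. Since the strand option of the counting is not given in the sources used here, reads from these bases cannot be assigned, but the share is 5.70% of the exon bases of Thra and 8.55% of those of Nr1d1.

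The retinoid receptors Rarb and Rxrg had the largest differences of the 33. Of the 6 retinoid receptors 5 were measured, and all 5 had the higher mean log2 level in type 1, as did 5222 of all 11923 genes, with a median difference of -2.01 against 0.24 over all genes. The direction of 2 of them turned with the neurons used: Rxra without 6-2, 9-2 and 9-4, and Rara without 9-1. The remaining one, Rarg, had 1 count in 8-2 and none elsewhere. Retinoic acid receptors (Rara, Rarb, Rarg) bind all-trans retinoic acid, made from vitamin A. They act as partners of the retinoid X receptors (Rxra, Rxrb, Rxrg), which also serve thyroid hormone, vitamin D and lipid receptors. Type 1 neurons had 2, 3, 2, 5 and 5 detected retinoid receptors in 1-1, 1-2, 4-3, 8-2 and 9-1. Type 2 neurons had 1, 1, 1, 1 and 2 in 6-2, 10-1, 10-3, 9-2 and 9-4, so that the ranges met at 2.

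Rarb (chromosome 14, 16430839 to 16819156, minus strand, GRCm38) had no count in 1-1 and stood at 51.3, 34.9, 98.2 and 84.1 CPM in 1-2, 4-3, 8-2 and 9-1. In type 2 it had no count in 6-2 and 10-3 and stood at 0.0721, 0.105 and 0.159 CPM in 10-1, 9-2 and 9-4. All type 1 neurons but 1-1 lay above all type 2 neurons. Means were 53.7 ± 39.2 and 0.0673 ± 0.0688 CPM (SD, n = 5 each), and the difference was -4.69. Rarb was detected in 4 of 5 type 1 neurons and in 0 of 5 type 2 neurons. The difference was -4.73 without 6-2, 9-2 and 9-4, -6.41 among the 6 libraries over 20000000 counts and -3.63 among the 4 under it. Rarb shares 1793 exon bases, 34.1% of its exon length, with Top2b, a topoisomerase gene on the opposite strand. Top2b reached 71.3 CPM in 1-1 and 146 CPM in 9-2, neurons in which Rarb was at 0 and 0.105 CPM, and at 1.95 CPM in 1-2, in which Rarb was at 51.3 CPM. It was highest in 4-3 with 165 CPM and at 15.5 and 34.5 CPM in 8-2 and 9-1, neurons in which Rarb was also detected. The part of Top2b reads in the Rarb counts was not tested.

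Rxrg (chromosome 1, 167598384 to 167639623, plus strand, GRCm38) was at 12.7, 150, 0, 244 and 18.4 CPM in type 1 neurons 1-1, 1-2, 4-3, 8-2 and 9-1. In type 2 it had no count in 6-2 and 10-3 and was at 0.0481, 0.0351 and 0.286 CPM in 10-1, 9-2 and 9-4. Here all type 1 neurons but 4-3 lay above all type 2 neurons. Means were 84.9 ± 108 and 0.0739 ± 0.121 CPM (SD, n = 5 each), and the difference was -4.55. It was -4.61 without 6-2, 9-2 and 9-4. Neurons 1-2, 8-2 and 9-1 had both Rarb and Rxrg detected, while 4-3 had Rarb alone and 1-1 had Rxrg alone.

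The promoters of these receptors are shown because Rarb is itself a textbook target of retinoic acid receptors, which bind paired hexamers of the form AGGTCA or a near variant. Windows from 250 bases before to 50 bases after the start sites were taken from RefSeq (GRCm38.p6), where 31 of the 33 receptors had an entry. They were searched on both strands for 4 hexamers: AGGTCA, the variant AGTTCA, the variant GGGTCA and the variant GGTTCA. Any pair of these on the same strand with 5 bases between them is called here a direct repeat. In the Rarb window on chr14:16575477-16575726 (minus strand), which lies inside the gene's annotated extent, the capitals mark the direct repeat, and its first base lies 53 bases before the start site. In the second of the Rxrg windows, on chr1:167618015-167618264 (plus strand), capitals mark AGTTCA, 164 bases before the start site, and AGGTCA, 88 bases before it, too far apart for a direct repeat. The 250 bases before each start site are printed.
Rarb promoter: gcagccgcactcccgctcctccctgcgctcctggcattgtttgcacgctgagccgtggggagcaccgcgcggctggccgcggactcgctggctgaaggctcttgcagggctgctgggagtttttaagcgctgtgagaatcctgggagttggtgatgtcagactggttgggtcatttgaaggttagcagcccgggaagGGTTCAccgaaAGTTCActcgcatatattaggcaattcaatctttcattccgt
Rxrg second promoter: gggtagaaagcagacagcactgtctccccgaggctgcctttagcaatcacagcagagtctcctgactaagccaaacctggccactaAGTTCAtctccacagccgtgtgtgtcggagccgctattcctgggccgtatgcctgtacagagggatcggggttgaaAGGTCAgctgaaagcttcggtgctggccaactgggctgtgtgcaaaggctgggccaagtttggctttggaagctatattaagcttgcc
Rarb was the only receptor with the direct repeat, which 31 of 27025 genes carry in a window (0.115%). Single hexamers were common: AGGTCA was in a window of 9 of 31 receptors and of 18.1% of all genes. In these neurons the Rarb transcript was high in 4 type 1 neurons and at 0.159 CPM or less in the other 6. These counts do not show which start site was used or whether a protein binds there.

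The other retinoid receptors differed less. Rxrb (chromosome 17, 34031812 to 34038399, plus strand, GRCm38) was at 99.1, 53.4, 64.0, 181 and 137 CPM in 1-1, 1-2, 4-3, 8-2 and 9-1. It was at 39.9, 197, 0.0828, 24.5 and 36.3 CPM in 6-2, 10-1, 10-3, 9-2 and 9-4. Every type 1 neuron lay above 4 of the type 2 neurons, but 10-1 was the highest of all 10. The difference of -2.01 was just past 4-fold and rested mainly on 10-3, without which it was -0.89. It was -2.74 without 6-2, 9-2 and 9-4, and under 4-fold without 8-2 (-1.79), without 9-1 (-1.89) and with TMM scaling (-1.84).

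Rxra was detected in 3 neurons, at 16.9 CPM in 8-2, 72.8 CPM in 9-1 and 65.6 CPM in 10-3. It was at 3.27, 6.49 and 0.102 CPM in 1-1, 1-2 and 4-3 and at 0, 0.216, 0.596 and 0.0954 CPM in 6-2, 10-1, 9-2 and 9-4. Neuron 10-3 was the only type 2 neuron above 1 CPM and also the one neuron in which Rxrb was near 0. The difference was -1.67 over all neurons, 0.07 without 6-2, 9-2 and 9-4, and -5.80 among the 3 neurons whose first number is 9. Those 3 are 9-1 of type 1 and 9-2 and 9-4 of type 2, so that type 1 is represented by 9-1 alone. Each neuron had at least 1 retinoid X receptor gene detected, between 1 and 3 in type 1 and exactly 1 in every type 2 neuron. Summed over the 3 genes, type 1 and type 2 neurons had 212 ± 145 and 72.9 ± 70.9 CPM (SD, n = 5 each), and 10-1 with 197 CPM lay inside the type 1 range of 64.1 to 442 CPM. Rara was at 0, 0, 0, 10.99 and 92.6 CPM in 1-1, 1-2, 4-3, 8-2 and 9-1 and at 0.0820, 0.240, 0, 0 and 45.9 CPM in 6-2, 10-1, 10-3, 9-2 and 9-4. Its difference was -0.83, and 0.30 without 9-1. Rara, Rxra, Nr1d2 and Esrra had their highest value in 9-1, the neuron with the highest oligodendrocyte markers. Nr1d1, Nr2c1 and Esrrg had theirs in 4-3, where these markers summed to 95.7 CPM, as did the undetected Nr2f2 with 0.306 CPM (3 counts). The part of RNA from such cells was not tested.

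**Figure D4:**
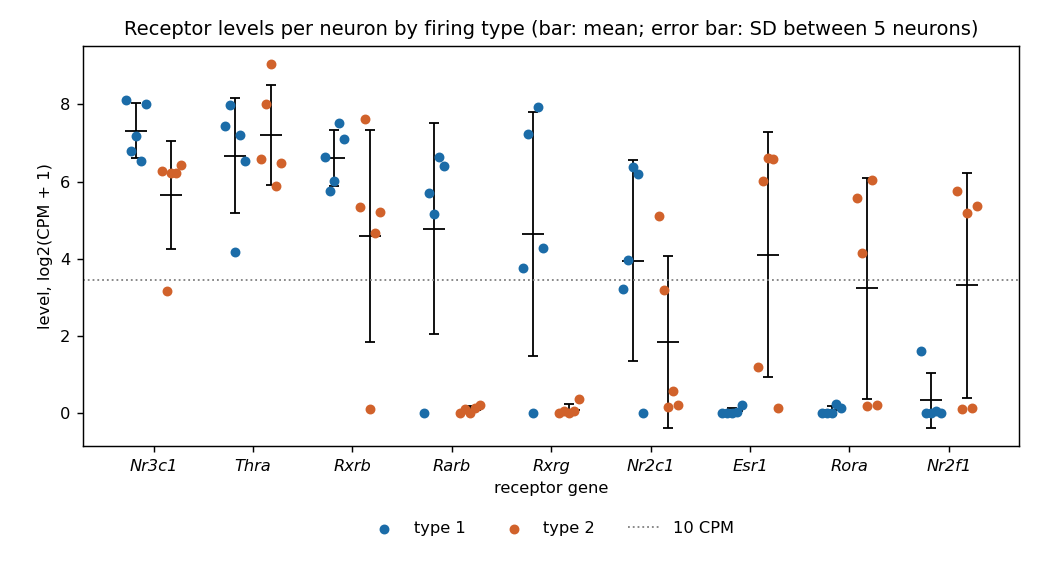
Level of 9 receptor genes in each neuron, as log2(CPM + 1), for type 1 (blue) and type 2 (orange). Horizontal bars are means and error bars the SD between the 5 neurons of a type, and the dotted line is 10 CPM. Nr3c1 is the gene whose points do not overlap between types, while Rarb and Rxrg have 4 high points and 1 at 0 in type 1.

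Of the receptors for lipids and vitamin D, only Nr1h2 had counts. It encodes liver X receptor beta, which senses oxysterols and drives cholesterol export. Nr1h2 had no count in 1-1 and 1-2 and was at 109, 22.5 and 117 CPM in 4-3, 8-2 and 9-1. In type 2 it was at 0 CPM in 6-2, 0.580 CPM in 10-3 and 55.2, 215 and 43.9 CPM in 10-1, 9-2 and 9-4. It was therefore detected in 3 of 5 neurons of each type, the groups overlapped throughout, and the difference was 0.30 (-0.41 without 6-2, 9-2 and 9-4). Rxrb, a partner of this receptor, was detected in all 6 of these neurons, but also in 9 of all 10. Nr1h3 (liver X receptor alpha), Ppara, Ppard and Pparg (receptors for fatty acids that govern their oxidation and storage) and Vdr (the vitamin D receptor) had no count in any neuron. A count of 0 allows at most 0.306 CPM in the shallowest library by counting error, and this limit does not account for transcripts lost before the library was sequenced.

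Among the orphan receptors, those of the clock were found in scattered neurons. Nr1d1 and Nr1d2 encode the REV-ERB repressors, which bind haem and repress Arntl, and Rora and Rorb encode the ROR activators that act on the same DNA elements. Nr1d1 was at 0, 23.9, 88.1, 0.119 and 0.0956 CPM in 1-1, 1-2, 4-3, 8-2 and 9-1 and at 51.9, 21.1, 0.0276, 1.05 and 46.8 CPM in 6-2, 10-1, 10-3, 9-2 and 9-4. Nr1d2 was at 0, 183, 0, 30.9 and 254 CPM in the type 1 neurons and at 4.35, 47.9, 0.0276, 0.140 and 14.7 CPM in the type 2 neurons, in the same order. Each gene was detected in 5 neurons, 3 of them shared (1-2, 10-1 and 9-4), and both overlapped between types. The differences were 1.09 for Nr1d1 and -1.66 for Nr1d2, and -0.03 and -1.28 without 6-2, 9-2 and 9-4.

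Rora (chromosome 9, 68653786 to 69388246, plus strand, GRCm38) was detected in type 2 neurons alone. It was at 46.9, 16.7 and 64.5 CPM in 6-2, 10-1 and 9-2 and at 0.138 and 0.159 CPM in 10-3 and 9-4. In type 1 it had no count in 1-1, 1-2 and 4-3 and was at 0.191 and 0.0956 CPM in 8-2 and 9-1. The groups overlapped, since 8-2 lay above 10-3 and 9-4. The difference was 3.16, and 2.09 without 6-2, 9-2 and 9-4. Rorb was detected only in 10-3, at 11.1 CPM, with 0 to 4.90 CPM in the other 9 neurons.

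Nr2f1 encodes COUP-TFI, a factor of neuronal development. Nr2f1 (chromosome 13, 78188973 to 78199757, minus strand, GRCm38) was at 52.9, 35.7 and 40.1 CPM in 6-2, 10-3 and 9-4 and at 0.0721 and 0.105 CPM in 10-1 and 9-2. In type 1 it reached 2.07 CPM in 1-1 and 0.0478 CPM in 8-2, and it had no count in 1-2, 4-3 and 9-1. The groups overlapped through 1-1, which lay above 10-1 and 9-2. The difference was 2.97, and 2.31 without 6-2, 9-2 and 9-4. Esr1, Rora and Nr2f1 are the receptors picked out above as at least 4-fold higher in type 2. Their detection in type 2 neurons therefore follows from that choice. No neuron had all of them detected. Esr1 and Rora met in 10-1 and 9-2, Esr1 and Nr2f1 in 10-3, and Rora and Nr2f1 in 6-2, while 9-4 had Nr2f1 alone. Nr2f2, or COUP-TFII, a relative of Nr2f1, reached 0.306 CPM in 4-3 and was detected in no neuron. Nr2f6, the third of this family, was at 21.7 CPM in 1-2, 12.5 CPM in 9-1 and 11.5 CPM in 9-4. In 8-2 and 10-3 it had 1.24 and 0.0276 CPM, and elsewhere it had no count, for a difference of -1.15. Of its exon bases, 54.4% are shared with Ocel1 on the opposite strand, which reached 22.0 CPM in 9-4 and had no count in 1-2 and 9-1.

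Nr2c1 and Nr2c2 encode the testicular receptors, repressors that bind direct repeats of the same hexamer. Nr2c1 (chromosome 10, 94148023 to 94197211, plus strand, GRCm38) was at 8.35, 14.6, 81.6, 72.7 and 0 CPM in 1-1, 1-2, 4-3, 8-2 and 9-1. It was at 33.8, 8.10, 0.110, 0.491 and 0.159 CPM in 6-2, 10-1, 10-3, 9-2 and 9-4. The groups overlapped, with 9-1 the lowest of all 10. The difference was -2.10 over all neurons, but 0.60 among the 4 libraries under 20000000 counts and 0.39 among the 3 neurons whose first number is 9. In the first of these sets 6-2 is the lone type 2 neuron, and in the second 9-1 is the lone type 1 neuron. The difference was -2.28 without 6-2, 9-2 and 9-4. With TMM scaling it was -1.90, and leaving out 4-3, 8-2, 10-3, 9-2 or 9-4 gave -1.50, -1.54, -1.68, -1.78 or -1.69. Nr2c2 was at 0, 0, 194, 116 and 37.1 CPM in the type 1 neurons and at 37.5, 313, 0.387, 1.44 and 0.922 CPM in the type 2 neurons. It was detected in 3 and 2 neurons, with a difference of -0.69 (0.44 without 6-2, 9-2 and 9-4), and 10-1 was the highest of all. Nr2c2 shares 30.7% of its exon bases with Mrps25 on the opposite strand, which had 287 CPM in 1-1 and 238 CPM in 1-2, where Nr2c2 had no count. Mrps25 was also at 172 CPM in 10-1, where Nr2c2 was highest, and at 95.4, 128 and 146 CPM in 8-2, 9-1 and 6-2, where Nr2c2 was detected, and at 4.90 CPM in 4-3. The part of Mrps25 reads was not tested.

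Nr6a1, the germ cell nuclear factor, was at 0.0668, 0, 0.102, 26.9 and 0.414 CPM in 1-1, 1-2, 4-3, 8-2 and 9-1. In type 2 it was at 11.2, 76.3, 0.166, 26.9 and 0.350 CPM in 6-2, 10-1, 10-3, 9-2 and 9-4. It was thus detected in 1 and 3 neurons, and its difference of 1.96 lay just under 4-fold and passed it in 10 of 21 alternatives. The oestrogen-related receptors, which act without a steroid on genes of mitochondria, were rare. Esrra reached 26.3 CPM in 9-1 and 8.12 CPM in 6-2, Esrrg was at 108 CPM in 4-3 and at 0.0820 CPM in 6-2 with no other count, and Esrrb had no count. Nr5a2 also had none.

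Other genes of the pathways were taken from lists of known roles, and their differences were spread to both sides. Of 12 coactivators, all measured, 5 had the higher mean in type 2 and 7 in type 1, with a median difference of -0.36. Ppargc1a, a coactivator of mitochondrial genes, had means of 24.7 ± 48.3 and 97.6 ± 92.2 CPM in type 1 and type 2 (SD, n = 5 each), a difference of 2.40. The other named coactivator, Smarca4, had a difference of 1.79 although its mean CPM was higher in type 1 (127 ± 173) than in type 2 (90.1 ± 69.6), because 1-1 and 1-2 were at 0. Of 9 corepressors, 4 were higher in type 2 and 5 in type 1, with a median of -0.38. Nrip1, a corepressor whose own gene is an oestrogen target, was detected in 4 type 2 neurons and in no type 1 neuron. It was at 39.6, 67.8, 41.4, 0.0701 and 141 CPM in 6-2, 10-1, 10-3, 9-2 and 9-4 and at 0.358 CPM or less in type 1, a difference of 4.70. Nrip1 and Esr1 were both detected in 10-1 and 10-3, while 9-2 had Esr1 without Nrip1, and 6-2 and 9-4 had Nrip1 without Esr1. Lcor, another corepressor, was detected in 4 neurons of type 1 against 1 of type 2, with a difference of -3.51.

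Of the 9 chaperones of steroid receptors, 5 were higher in type 2 and 4 in type 1, with a median of 0.07. Fkbp5, a chaperone that lowers the affinity of the glucocorticoid receptor and is induced by it, was at 16.5, 167, 112, 0 and 3.00 CPM in 1-1, 1-2, 4-3, 8-2 and 9-1. It had no count in any type 2 neuron, so that the groups met at 0 through 8-2. The difference was -4.07. Nr3c1 was detected in each of the 3 neurons with Fkbp5 detected, and in 6 others. Hsp90aa1, the stress-induced HSP90 gene, had means of 1131 ± 919 and 459 ± 313 CPM in type 1 and type 2 (SD, n = 5 each), a difference of -1.13. Of 9 genes induced by glucocorticoids, 5 were higher in type 2 and 4 in type 1, with a median of 0.04. Besides Fkbp5, Errfi1 had 177 ± 146 and 47.2 ± 60.6 CPM, a difference of -2.51.

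Genes that make, carry or degrade the hormones were mostly at low levels or at 0. Of 12 genes for steroid and thyroid hormone handling, 7 had a count and 4 were measured, 2 higher in each type, with a median of -0.57. Hsd17b12, a steroid and fatty acid reductase, was detected in 5 type 1 and 3 type 2 neurons, with a difference of -1.58. The genes of the thyroid hormone deiodinases, Dio1, Dio2 and Dio3, reached no more than 0.387 CPM in any neuron. Of 12 retinoid handling genes, 8 had a count and 4 were measured. Each of the 4 had the higher mean log2 level in type 1, as did 5222 of all 11923 genes, with a median of -1.24. Among them, Rbp4 differed by only -0.08, and Dhrs3 was detected in 8-2 alone, at 109 CPM. None of these 4 was detected in more than 2 neurons of either type, and the retinoic acid synthesis genes Aldh1a1 and Aldh1a2 and the degradation genes Cyp26a1 and Cyp26b1 had no count.

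Of 15 circadian clock genes, 13 were measured, 6 higher in type 2 and 7 in type 1, with a median of -1.06. Clock, the core activator, was at 178, 91.9, 117, 34.6 and 35.7 CPM in 1-1, 1-2, 4-3, 8-2 and 9-1 and at 37.6, 2.79, 2.82, 56.6 and 0.604 CPM in 6-2, 10-1, 10-3, 9-2 and 9-4. It was detected in every type 1 neuron and in 6-2 and 9-2, and its difference was -3.12. Per2, a repressor of the clock, was detected in 3 neurons of type 1 against 1 of type 2, with a difference of -2.77. The time of day of each recording is not given in the sources used here, and its part was not tested. Of 11 targets of the lipid receptors, 7 were measured, 5 higher in type 2 and 2 in type 1, with a median of 0.62. Acadm, a gene of fatty acid oxidation, had 52.8 ± 57.2 and 117 ± 52.9 CPM (SD, n = 5 each), a difference of 2.96. Srebf1, the regulator of lipid synthesis, had 6.75 ± 14.7 and 31.5 ± 38.8 CPM, a difference of 2.25.

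**Figure D5:**
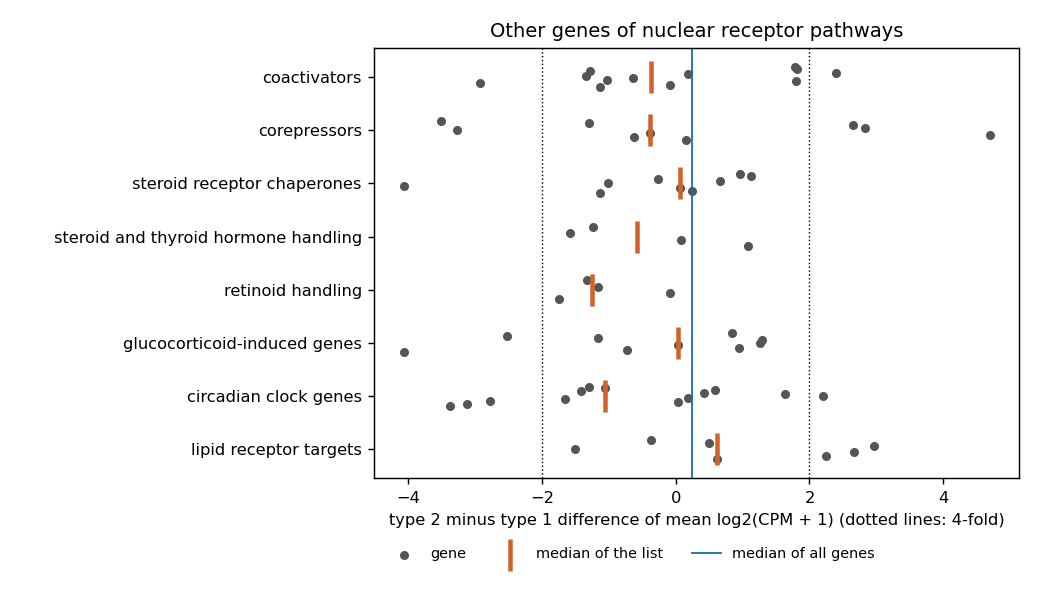
Difference between types (type 2 minus type 1, mean log2(CPM + 1)) for measured genes of 8 pathway lists (grey points), with the median of each list (orange) and of all genes (blue line). Dotted lines are 4-fold, and the lists' medians run from -1.24 for retinoid handling to 0.62 for lipid receptor targets.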

How the data were processed

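Whole-number counts of reads per gene were deposited for each of the 10 neurons. The submitters' processing notes name mm10, HTSeq 0.6.1p1, cutadapt 1.13, and STAR and DESeq2 without versions. Their order, the strand option, amplification of cDNA and the annotation release were not given in the sources used here. Amplified reads are not independent molecules, so all intervals cover counting error only.

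Symbols were matched by Ensembl identifier, and coordinates and exon unions came from GENCODE M21 (GRCm38). CPM used the library's summed gene counts, with a pseudocount of 1 CPM on the log2 scale, in Python 3.11.15 (pandas 2.3.3, scipy 1.17.1). edgeR 4.0.16 gave TMM factors for an alternative, and no test was run. The computation of differences was tested on simulated data. Values in every neuron were given for receptors detected in at least 2 neurons, and each pathway list was represented by the 2 genes of largest absolute difference, provided that 3 or more neurons of 1 type had them detected. The members, lists and rules were chosen with earlier results of these data known. No library was a copy of another: over 45 pairs, the lowest chi-square per degree of freedom was 619.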

Additional observations from a re-analysis of the deposited data

Results flagged for a closer look

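Of 38 groups of 5 neurons examined, 9 held a neuron far from the others of its type by Dixon's gap criterion, where chance alone flags about 1 in 20 groups of normally distributed values. That rate was not measured for values that, like these, are mostly either near 0 or above 10 CPM. In type 2, Nr3c1 was at 7.98 CPM in 10-1, against 73.2 to 85.1 CPM in the other 4 neurons. Rara was at 45.9 CPM in 9-4, Rxra at 65.6 CPM in 10-3 and Nr2f6 at 11.5 CPM in 9-4, each with the other 4 neurons of the type at 0.596 CPM or less. In type 1, Rarb was at 0 CPM in 1-1, against 34.9 to 98.2 CPM in the other 4 neurons, and Nr6a1 was at 26.9 CPM in 8-2, against 0.414 CPM or less. The remaining flags concern values below the detection level of 10 CPM. They are Esr1 at 0.159 CPM in 9-1 (5 counts), Nr2f1 at 2.07 CPM in 1-1 (31 counts) and Rxrg at 0.286 CPM in 9-4 (9 counts).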

How the results depend on the processing

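Rarb and Rxrg were at least 4-fold higher in type 1 in 21 of 21 alternatives. In the same count, Rora and Nr2f1 were past 4-fold in 20, Esr1 in 19, Rxrb in 13 and Nr2c1 in 11. Nr2c1 changed sign in 2 of them: 0.60 among libraries under 20000000 counts and 0.39 among neurons numbered 9. The count at least 4-fold higher in type 2 was 3. It became 0 with a pseudocount of 10 CPM, 5 with medians over neurons, 7 among libraries under 20000000 counts and 5 among neurons whose first number is 9. The count at least 4-fold higher in type 1 was 4. Without 6-2, 9-2 and 9-4, Nr3c1 and Nr3c2 were past 4-fold as well. With the log2 ratio of mean CPM + 1, Nr1d2 and Esrrg took the places of Rxrb and Nr2c1. The count was 6 with a pseudocount of 0.1 CPM and with medians over neurons. It became 2 with a pseudocount of 10 CPM and with TMM scaling, 10 among libraries over 20000000 counts, and 9 among neurons whose first number is 9. Leaving out 1 neuron at a time gave 3 to 4 receptors higher in type 2 and 2 to 5 higher in type 1, the 2 without 8-2. The median difference over receptors then ran from -0.97 to -0.13, against 0.14 to 0.37 over all genes. It was 0.13 among libraries under 20000000 counts. The difference in receptors detected per neuron was -4.5 among libraries over 20000000 counts and also among neurons whose first number is 9, 2.33 among libraries under 20000000 counts, and -2.35 to -0.35 leaving out 1 neuron. The causes were not tested. TMM moved the median of all genes from 0.24 to 0.39. No fit with the neuron numbers as a block was made, since no test was made between types.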
